A study of Mus musculus with 6 samples.

Results

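The collagen genes are the 43 genes, of 23284 genes listed for the ventricles, whose symbol is Col followed by a type number, the letter a and a chain number. The rule reads the name alone and no measured value. Single-end RNA-seq was performed on heart ventricles of E9.5 tetraploid chimeric embryos, with 3 WT and 3 KD embryos. The strain label of all embryos is C57BL/6, and the edited ES cells derive from C57BL/6 J. In WT embryos the ES cells are wild type, and in KD embryos they are Tbx5ua -/-, with polyadenylation signals placed in both alleles of the lncRNA Tbx5ua so that its transcription ends early. The edited ES cells are clonal lines, and which line gave which sequenced embryo was not stated. Each group has a single value per gene, which the authors computed over its embryos in FPKM (fragments per kilobase of transcript, scaled to the mapped fragments of a library). The spread between embryos is therefore unknown, no test between the groups was made, and every KD to WT difference below is a difference between 2 group values. In whole ventricles fewer cells of a type and less RNA per cell cannot be told apart.

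Collagens are extracellular proteins built from 3 chains that wind into a triple helix. Each chain carries a repeat in which every 3rd residue is glycine, the only side chain small enough for the core of the helix. Fibrillar collagens pack into cross-linked fibrils that give tissue its tensile strength. Type IV collagen forms the sheet-like network of basement membranes, and type XVIII collagen is a proteoglycan of the same layer. In the looping heart a basement membrane lies under both endocardium and myocardium, with the cardiac jelly between them, and fibrillar collagens are laid down where cushions and epicardium form.

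The repeat is shown as the first 63 coding bases of the longest unbroken glycine tract of 4 members that represent the classes compared here. Sequences were read from GENCODE M21 transcripts, with each glycine codon in capitals.
Col1a1: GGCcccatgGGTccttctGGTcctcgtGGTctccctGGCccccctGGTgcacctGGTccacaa
Col2a1: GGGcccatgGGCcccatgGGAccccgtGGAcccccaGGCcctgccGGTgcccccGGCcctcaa
Col4a1: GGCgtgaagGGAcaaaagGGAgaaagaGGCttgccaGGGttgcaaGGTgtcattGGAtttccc
Col6a1: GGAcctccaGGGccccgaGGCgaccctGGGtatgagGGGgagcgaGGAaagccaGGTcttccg

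The length of the tracts differed by class. In the longest open reading frames of the 6 expressed fibrillar genes, the longest unbroken tract held between 338 triplets (Col1a1 and Col5a1) and 344 triplets (Col3a1). In the 4 expressed type IV genes the repeat was split into 22 to 25 tracts of at least 5 triplets, and the longest held 40 triplets in Col4a1 and 66 triplets in Col4a2. Col6a1 and Col6a2 each had a longest tract of 87 triplets, which with their other tracts made up 31.9% of either protein. In Col18a1 the repeat made up 28.6% of the protein, in 14 tracts.

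Most collagen genes were at low levels in these ventricles. Of the 43 genes, 15 reached 1 FPKM in either group, 14 of them in both groups and Col6a1 in KD alone. Cuffdiff marked 18 of the 43 as having enough alignments to compare. The collagen values summed to 240.2 FPKM in WT and 245 in KD, or 0.0280% and 0.0279% of the sum over all genes. Col18a1, Col2a1, Col4a1 and Col3a1 were the 4 highest in both groups, and held 72.2% of the collagen sum in WT and 67.6% in KD. The 6 cardiomyocyte markers summed to 16734 FPKM in WT and 15959 in KD. Tbx5ua itself, which would check the group labels, was not analysed here.

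A gene is described as past 1.5-fold when (KD + 0.1)/(WT + 0.1) is at least 1.5, or its inverse is (0.58 on the log2 scale after rounding), and the gene reaches 1 FPKM in either group, which 11606 genes do. By this rule 2 of the 15 collagen genes, Col1a1 and Col6a1, were higher in KD and 1, Col2a1, was lower. Over all 11606 genes 4.48% were higher and 3.10% were lower past 1.5-fold. Col6a1 met the filter of 1 FPKM only through KD, the group where it is high, so its entry into this count depends on its own difference. Of the 14 genes with at least 1 FPKM in both groups, 1 was higher and 1 lower past 1.5-fold. The share of all genes was not computed under that filter, and the shares given are for 1 FPKM in either group. Large ratios are more frequent at low levels. Among genes whose higher value was 1 to 5 FPKM, 9.63% were higher and 6.75% lower past 1.5-fold, and 6 collagen genes lay in that range, Col1a1 and Col6a1 among them. Among genes that reached at least 5 FPKM, 2.09% were higher and 1.41% lower, and 9 collagen genes lay there, of which Col2a1 was past 1.5-fold.

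**Figure D1:**
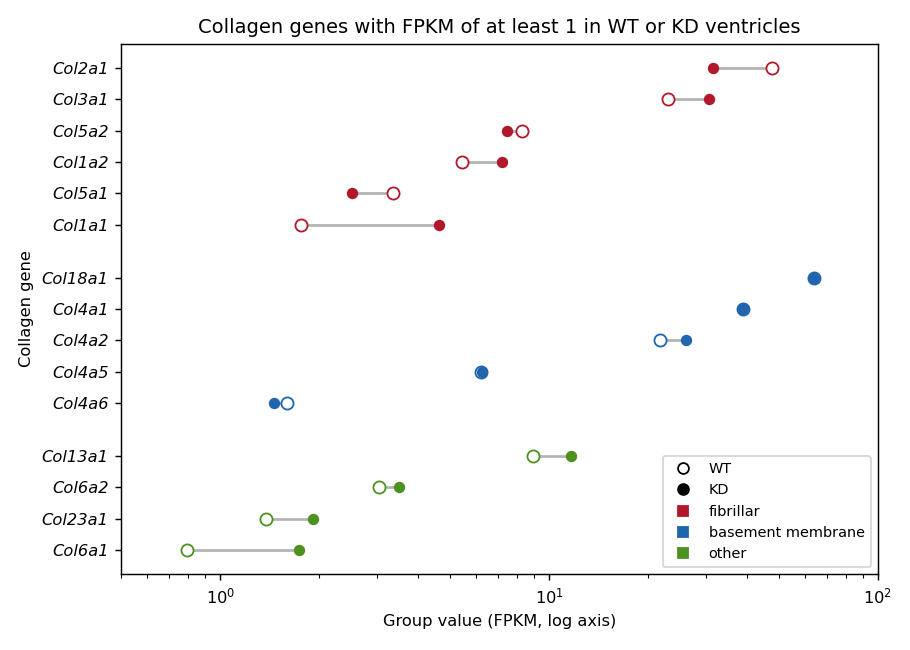
Group values of the 15 collagen genes with at least 1 FPKM in either group, on a log axis, with open circles for WT, filled circles for KD and colours for the class. Col1a1 (1.76 to 4.64 FPKM) and Col6a1 (0.791 to 1.74 FPKM) lie furthest to the right of their WT values, Col2a1 (47.6 to 31.5 FPKM) furthest to the left, and the circles of Col18a1, Col4a1 and Col4a5 coincide.

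A 2-fold limit kept Col1a1 and Col6a1, 2 of 15 genes (1 of 14 without Col6a1) against 1.43% of all genes, and no collagen gene was lower by 2-fold, against 1.06% of all genes. A limit of 0.32 on the log2 scale gave 6 higher and 2 lower collagen genes, against 12.1% and 9.34% of all genes. The 6 were Col1a1, Col6a1, Col23a1, Col3a1, Col1a2 and Col13a1, and the 2 were Col2a1 and Col5a1. Of the 6, Col6a1 met the filter only through KD. Over the 15 genes, Col6a1 included, the log2 ratio ran from -0.59 to 1.35 with a median of 0.20, where the median of all 11606 genes was 0.00. The collagen median depended on the filter. It was 0.01 over the 37 genes above 0 FPKM and 0.01 over the 9 that reach 5 FPKM. Of the 15 genes 11 had a ratio above 0, or 73.3%, against 50.9% of all genes. Col6a1 is among the 11 and met the filter only through KD, which fixed its sign. The ratios of Col18a1, Col4a1 and Col4a5 are so near 0 that the count depends on scaling: it was 9 after subtracting the median of all genes and 8, or 53.3% against 45.1% of all genes, after rescaling both groups to the same sum. These recounts were added after the data were seen. Col2a1 was just past the 1.5-fold limit, at -0.59, and the nearest gene short of it was Col23a1 at 0.44.

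Among the fibrillar collagens the level of the whole class was close in the groups while its makeup differed. The 11 genes summed to 90.0 FPKM in WT and 84.6 in KD, a ratio of 0.94. Without Col2a1 the sum was 42.4 FPKM in WT and 53.1 in KD, so the direction of the sum turned on that gene. Of the 6 fibrillar genes with at least 1 FPKM, 3 were higher and 3 lower in KD, with 1 past 1.5-fold in each direction and a median log2 ratio of 0.13.

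Col2a1 encodes type II collagen, the main fibril protein of cartilage, which is also made for a time at tissue borders of the early embryo. In the table the gene lies on the minus strand of chromosome 15, from 97975602 to 98004724 of mm10. It was the highest fibrillar gene in WT at 47.6 FPKM and had 31.5 FPKM in KD, a ratio of 0.66 and a log2 ratio of -0.59. Its share of the fibrillar sum was 52.9% in WT and 37.2% in KD. Among the 7931 genes that reach 5 FPKM, 107 were lower by at least as much, or 1.35%. Sox9, a transcription factor that activates Col2a1 in cartilage, went the other way, with 8.95 FPKM in WT and 1.79 times as much in KD. The 5 cartilage markers Acan, Matn1, Cnmd, Sox5 and Ucma summed to 0.536 FPKM in WT and 0.695 in KD, with Ucma listed at 0 in both groups. That list leaves out Sox9, which mesenchyme also makes, and the part of any cell type in the Col2a1 values was not tested.

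Type IX collagen coats type II fibrils, and its 3 chain genes stayed below 1 FPKM. Col9a1 had 0.534 FPKM in WT and 0.209 in KD, Col9a2 had 0.853 and 0.894 FPKM, and Col9a3 had 0.659 and 0.990 FPKM. The summed level of the 3 genes was 2.05 FPKM in WT and 2.09 in KD, in which the lower Col9a1 value of KD is offset by Col9a3. Col9a3 shares its locus in the table with Tcfl5, so its value is less certain. Col11a1, whose chain is the third partner of cartilage fibrils, had 0.341 FPKM in WT and 0.319 in KD, and Col11a2 was listed at 0 in WT with 0.0392 FPKM in KD.

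The genes of types I and III, the collagens of loose and fibrous connective tissue, had higher values in KD, of which Col1a1 alone was past 1.5-fold and Col1a2 and Col3a1 were not. Together they summed to 30.2 FPKM in WT and 42.6 in KD, a ratio of 1.41. The planned sums were by class, and the split of the fibrillar class by type was not among them. The 3 genes lie on chromosomes 11 (Col1a1, 94936270 to 94951856), 6 (Col1a2, 4505697 to 4541543) and 1 (Col3a1, 45311538 to 45349706), all on the plus strand of mm10. Col1a1, the alpha 1 chain of type I, had 1.76 FPKM in WT and 4.64 in KD, a ratio of 2.64 and the largest log2 ratio of the 15 genes at 1.35. Among the 3675 genes whose higher value was 1 to 5 FPKM, 49 were higher by at least as much, or 1.33%. Col1a2, the alpha 2 chain, had 5.42 FPKM in WT and 7.22 in KD, a log2 ratio of 0.41. Col3a1, the chain of type III, had 23.0 FPKM in WT and 30.7 in KD, a log2 ratio of 0.42. Ratios at least as high as those of Col1a2 and Col3a1 were found in 4.64% and 4.55% of the genes that reach 5 FPKM.

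Type V collagen, which starts fibrils of types I and III and limits their width, did not share this direction. Col5a1 had 3.35 FPKM in WT and 2.52 in KD (log2 ratio -0.40), and Col5a2 had 8.30 and 7.47 FPKM (log2 ratio -0.15). Neither was past 1.5-fold. Col5a2 lies tail to tail with Col3a1 on chromosome 1, with 24624 bases between them, and their log2 ratios differed in sign. Col5a3 was listed at 0 in both groups. The type V genes summed to 11.7 FPKM in WT and 9.99 in KD, a ratio of 0.86 beside the 1.41 of types I and III.

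**Figure D2:**
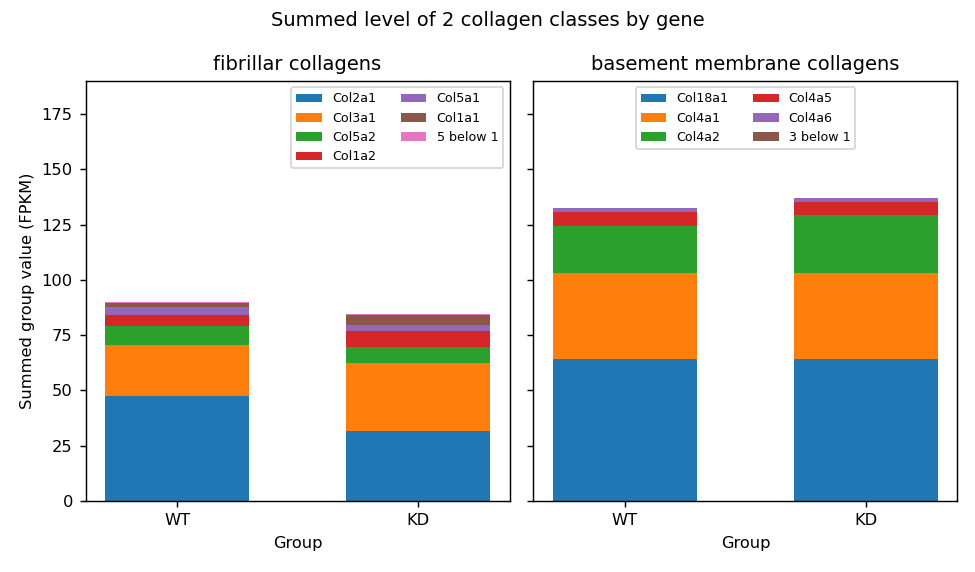
Stacked group values in FPKM of the fibrillar (left) and basement membrane (right) collagen genes in WT and KD, 1 colour per gene, with genes below 1 FPKM in both groups added together. The fibrillar bars reach 90.0 and 84.6 FPKM with a smaller Col2a1 block and larger Col3a1, Col1a2 and Col1a1 blocks in KD, and the basement membrane bars reach 132 and 137 FPKM with like blocks.

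The basement membrane collagens were the most abundant class. The 8 genes summed to 132 FPKM in WT and 137 in KD, or 55.1% and 56.0% of all collagen, and 0 of the 5 genes with at least 1 FPKM were past 1.5-fold in either direction. With 4.48% of all genes higher and 3.10% lower, a count of 0 among 5 genes is near the background. Within 1.1-fold lay 4 of the 15 collagen genes, all of this class (Col18a1, Col4a1, Col4a5 and Col4a6), beside 46.0% of all genes. The median log2 ratio of the 5 genes was 0.00. Col18a1, the heparan sulfate bearing chain whose cleaved end is endostatin, was the highest collagen gene, with 64.1 FPKM in WT and 64.2 in KD. Col4a1, the main network chain, had 38.8 FPKM in WT and 38.9 in KD. Its partner Col4a2 had 21.7 FPKM in WT and 26.1 in KD, with a log2 ratio of 0.27, the largest of these 5 genes. Col4a5 had 6.23 and 6.25 FPKM and Col4a6 had 1.60 and 1.46 FPKM. Col4a3 and Col4a4, the chains of the filtering membrane of the kidney, were at 0.00287 and 0.0316 FPKM in WT and at 0.0546 and 0.0141 in KD. Col15a1, the relative of Col18a1 found around muscle and capillaries, had 0.00300 FPKM in WT and was listed at 0 in KD.

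Col4a1 and Col4a2 lie head to head on chromosome 8, at 11198423 to 11312826 on the minus strand and at 11312829 to 11449287 on the plus strand of mm10, with 2 bases between them in the table. The RefSeq promoter windows of both genes (250 bases before to 50 after the start, GRCm38.p6) overlap by 78 bases (chr8:11312777-11312854), with the RefSeq start of Col4a2 at 11312805 and that of Col4a1 at 11312826. The window of Col4a2 (chr8:11312555-11312854, plus strand) is shown because the pair is read from it in opposite directions, with CCAAT and GGGCGG, the letters of the CCAAT box and the GC box, in capitals on both strands.
Col4a2: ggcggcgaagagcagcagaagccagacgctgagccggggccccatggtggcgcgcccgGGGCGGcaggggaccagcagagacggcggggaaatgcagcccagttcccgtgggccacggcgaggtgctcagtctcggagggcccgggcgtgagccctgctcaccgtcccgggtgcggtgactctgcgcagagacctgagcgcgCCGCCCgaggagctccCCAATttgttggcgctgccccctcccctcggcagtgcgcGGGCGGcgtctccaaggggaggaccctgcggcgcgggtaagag

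Although the promoter windows of Col4a1 and Col4a2 overlap, the pair was not at equal levels. The ratio of Col4a1 to Col4a2 was 1.79 in WT and 1.49 in KD, in the same order as the 2 to 1 make-up of the common type IV trimer. Col4a5 and Col4a6, a second head-to-head pair with 1342 bases between them on chromosome X, were at a ratio of 3.90 in WT and 4.29 in KD. Type I collagen is likewise made of alpha 1 and alpha 2 chains at 2 to 1, but its transcripts were in the opposite order. Col1a1 stood at 0.32 of Col1a2 in WT and at 0.64 in KD, so that the ratio was 1.98 times as large in KD. For type V the ratio of Col5a1 to Col5a2 was 0.40 in WT and 0.34 in KD. Smart-Seq2 reads need not cover long transcripts evenly, and the effect of this on a ratio between chains was not tested. The spread of these ratios between embryos is unknown.

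Col1a2 and Col3a1 are chains of different types, and their comparison was not planned. Col3a1 stood at 4.24 times Col1a2 in WT and 4.25 times in KD. Against Col1a1 it did not keep its proportion, at 13.09 times in WT and 6.62 times in KD. The promoter windows of Col1a2 and Col3a1 are shown because this pair kept its proportion, a choice made from the same values. A link between the windows and the levels was not tested. The CCAAT and GC boxes are again in capitals (GRCm38.p6, plus strand, chr6:4505368-4505667 for Col1a2 and chr1:45311288-45311587 for Col3a1).
Col1a2: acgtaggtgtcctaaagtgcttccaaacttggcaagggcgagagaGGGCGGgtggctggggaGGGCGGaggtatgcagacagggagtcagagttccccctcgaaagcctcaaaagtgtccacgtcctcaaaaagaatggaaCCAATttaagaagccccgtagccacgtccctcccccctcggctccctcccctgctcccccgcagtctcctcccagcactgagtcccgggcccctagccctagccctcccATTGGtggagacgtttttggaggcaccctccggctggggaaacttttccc
Col3a1: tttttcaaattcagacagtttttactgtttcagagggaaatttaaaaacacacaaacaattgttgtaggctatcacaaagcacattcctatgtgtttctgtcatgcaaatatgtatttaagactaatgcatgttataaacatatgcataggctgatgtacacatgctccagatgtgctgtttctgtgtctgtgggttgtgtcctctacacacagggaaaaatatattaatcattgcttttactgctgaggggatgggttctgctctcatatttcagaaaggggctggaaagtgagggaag

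In a search of either strand, the window of Col1a2 held CCAAT and GGGCGG and that of Col3a1 held neither. Promoter windows were found for 12 of the 15 genes, 14 windows in all. Col1a1, Col2a1 and Col5a2 had no window, so their promoters were not searched. CCAAT was in 5 and GGGCGG in 10 of the 14 windows, where 37.4% and 35.7% of all 32851 windows held them. The stretch shared by Col4a1 and Col4a2 holds GGGCGG and is counted in both windows. The letters TATAAA were in the windows of Col3a1 and Col13a1 and in 13.6% of all windows. AGGTGT, the core letters that T-box factors such as Tbx5 prefer, was in 13.7% of all windows. Among the 14 windows searched it was in that of Col1a2 alone, and Col1a1 and Col2a1 were not among them. These are matches of letters within 300 bases on either strand, and binding was not measured.

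The remaining collagens are anchored in membranes, form beaded filaments or decorate fibrils, and the 4 that reached 1 FPKM all had log2 ratios above 0, with a median of 0.42, where 50.9% of all genes had a ratio above 0. Of these, Col6a1 met the filter only through KD, which fixed its sign. The 24 genes of this class summed to 17.8 FPKM in WT and 22.9 in KD, a ratio of 1.28. Col13a1, a transmembrane collagen of cell contacts and muscle, was the highest of them, with 8.92 FPKM in WT and 11.7 in KD (log2 ratio 0.39). Col23a1, also transmembrane, had 1.38 FPKM in WT and 1.91 in KD (log2 ratio 0.44). Col17a1 and Col25a1, the other transmembrane members, stayed below 0.2 FPKM in both groups.

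Type VI collagen forms beaded filaments close to cells from alpha 1, alpha 2 and alpha 3 chains in equal number. Col6a1 (chromosome 10, 76708792 to 76726044, minus strand) had 0.791 FPKM in WT and 1.74 in KD, a ratio of 2.20 and a log2 ratio of 1.05. Col6a2, its neighbour 85387 bases away, had 3.03 FPKM in WT and 3.50 in KD, a log2 ratio of 0.20. Col6a1 stood at 0.26 of Col6a2 in WT and at 0.50 in KD, a ratio that is less certain than those above since Col6a1 was below 1 FPKM in WT. Col6a3, the chain that completes the common trimer, had 0.0784 FPKM in WT and 0.0521 in KD. Col6a4, Col6a5 and Col6a6, its alternatives, were listed at 0 in both groups. Of the 3675 genes whose higher value was 1 to 5 FPKM, 94 were higher by at least as much as Col6a1, or 2.56%. Col6a1 is in that range only through KD, so this share depends on its own difference and nothing is concluded from it.

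**Figure D3:**
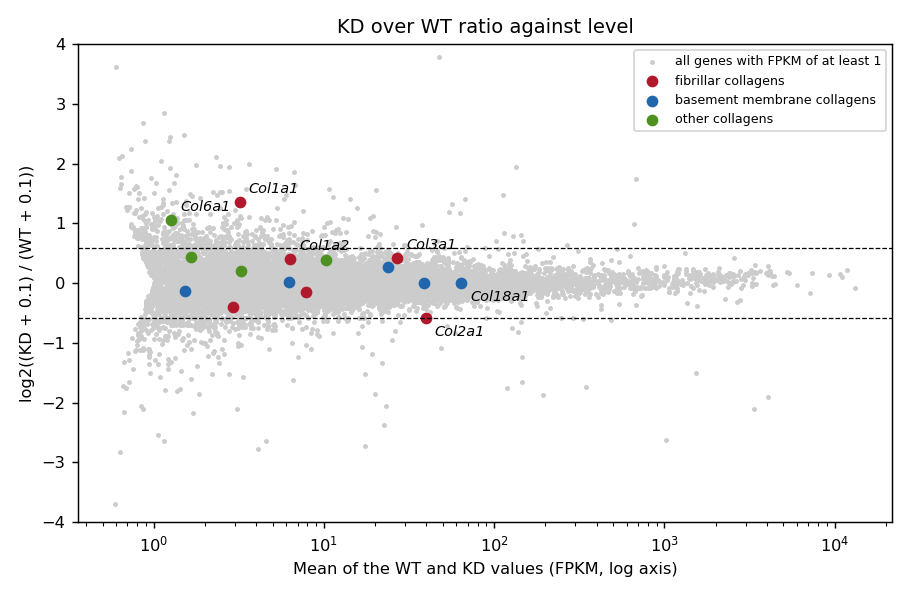
Log2 ratio of KD over WT (with 0.1 FPKM added to both) against the mean of the group values on a log axis, for 11606 genes in grey and the 15 collagen genes in colour, with dashed lines at 1.5-fold. Col1a1 and Col6a1 lie above the upper line and Col2a1 just below the lower line; 62 other genes lie beyond the axis limit of 4, 57 of them listed at 0 in a group.

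The other 28 collagen genes were below 1 FPKM in both groups and summed to 4.33 FPKM in WT and 4.65 in KD. Cuffdiff marked 3 of them, the type IX genes, as having enough alignments, so ratios of the others rest on few reads and are not read here. Besides the 3 type IX genes, the highest in WT was Col12a1, a collagen on fibril surfaces, with 0.385 FPKM in WT and 0.184 in KD. The highest in KD was Col16a1, of the same group, with 0.143 and 0.394 FPKM. Col8a1 and Col8a2, network formers of vessel walls, had 0.266 and 0.0519 FPKM in WT and 0.362 and 0.226 in KD. Col22a1, found at muscle and tendon junctions, had 0.304 and 0.105 FPKM. Col7a1 and Col14a1 lay at or below 0.108 FPKM, Col20a1 at 0.0703 and 0.147 FPKM, and Col27a1 at 0.230 and 0.220 FPKM. Col5a3, Col6a4, Col6a5, Col6a6, Col19a1 and Col28a1 were listed at 0 in both groups, Col10a1 and Col11a2 at 0 in WT, and Col15a1 and Col24a1 at 0 in KD. A listed 0 is not proof of absence, since the depth is unknown. Col10a1, Col27a1 and Col7a1 share their loci in the table with another gene.

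The genes that make and handle collagen protein were taken from a list of 73, of which 49 reached 1 FPKM. Past 1.5-fold, 5 of the 49 were higher and 1 was lower in KD, beside 4.48% and 3.10% of all genes, and the median log2 ratio was 0.02. Of the 46 with at least 1 FPKM in both groups 4 were higher and 0 lower, and the share of all genes under that filter was not computed. The 5 became 3 with a pseudocount of 1, where Creb3l1 (0.53) and Ctsk (0.49) were short of 1.5-fold. The share of all genes with that pseudocount was not computed. At a 2-fold limit the 5 also became 3, beside 1.43% of all genes. Of 11 genes of prolyl and lysyl hydroxylation, which stabilises the helix and prepares cross-links, 0 were past 1.5-fold. P4hb, the shared subunit of the prolyl hydroxylases, had 223 FPKM in WT and 241 in KD. Of 12 genes of glycosylation, folding and export only Creb3l1, a transcription factor that activates collagen genes, was past 1.5-fold, with 2.29 FPKM in WT and 3.77 in KD. Sec13, a coat protein of secretory vesicles and the highest of them in WT, had 269 FPKM in WT and 237 in KD, and Serpinh1, the collagen chaperone HSP47, had 255 and 259 FPKM.

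Outside the cell Dcn, Loxl1 and Ctsk were past 1.5-fold with at least 1 FPKM in both groups, and Mrc2 and Pcolce2 with less in a group. Dcn, the proteoglycan decorin that coats fibrils of type I, had 2.15 FPKM in WT and 8.28 in KD, a log2 ratio of 1.90. Sparc, a collagen-binding protein and the highest of the fibril-associated genes, had 188 FPKM in WT and 225 in KD, a log2 ratio of 0.26. Loxl1, a cross-linking oxidase, had 4.38 FPKM in WT and 8.97 in KD (log2 ratio 1.02), while Lox was listed at 0 in WT with 0.17 FPKM in KD and Tgm2, the highest of the role, had 113 and 119.9 FPKM. Of the genes of procollagen cleavage, Pcolce, an enhancer of C-propeptide removal, had 27.0 FPKM in WT and 35.5 in KD (log2 ratio 0.40). Its relative Pcolce2 was the gene lower past 1.5-fold, with 1.82 and 0.610 FPKM (log2 ratio -1.44), and it met the filter only through WT.

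Among the receptors Itgb1, the beta chain of the collagen integrins, was the highest, with 74.4 FPKM in WT and 71.0 in KD. Mrc2, which takes up collagen fragments, had 0.268 FPKM in WT and 1.0 in KD (log2 ratio 1.59). It met the filter of 1 FPKM only through KD, and after rescaling both groups to the same sum it no longer did, which left 4 of 48 pathway genes higher. Of the 9 breakdown genes with at least 1 FPKM, Ctsk, a protease that cleaves the helix, was past 1.5-fold with 2.36 FPKM in WT and 3.70 in KD (log2 ratio 0.63). Mmp2, a gelatinase and the highest of the role in WT, had 18.1 and 17.9 FPKM.

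**Figure D4:**
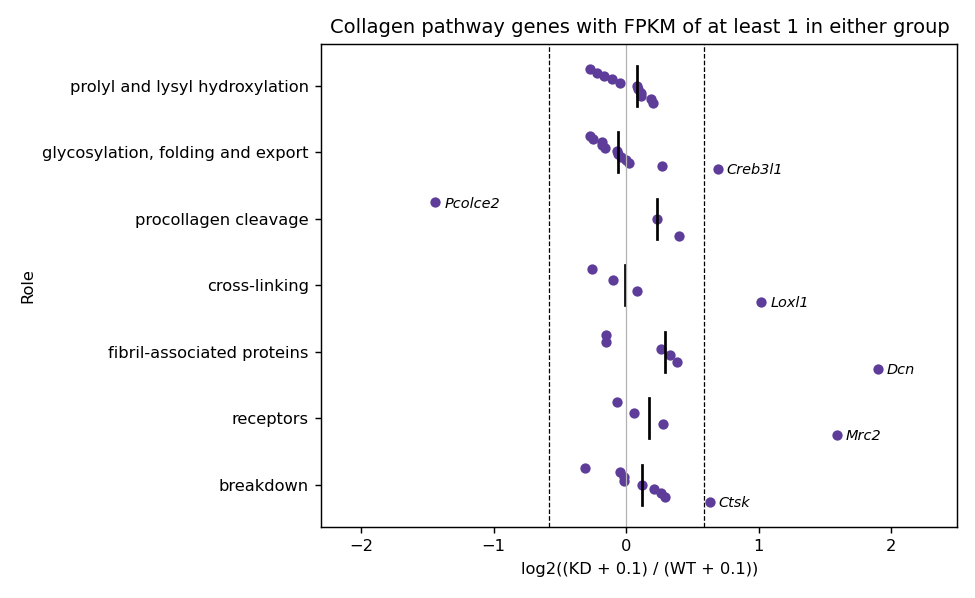
Log2 ratio of KD over WT (0.1 FPKM added to both) for the 49 collagen pathway genes with at least 1 FPKM in either group, 1 point per gene by role, with a bar at each role's median and dashed lines at 1.5-fold. Dcn (1.90), Mrc2 (1.59), Loxl1 (1.02), Creb3l1 (0.69) and Ctsk (0.63) lie right of the upper line and Pcolce2 (-1.44) left of the lower line.

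Markers of epicardium and mesenchyme, which make fibrillar collagen, are given for the cells the ventricles could hold. All 7 epicardial markers reached 1 FPKM in either group and summed to 100.3 FPKM in WT and 141 in KD, with 5 of them higher past 1.5-fold and 0 listed at 0, where 4.48% of all genes were higher and 3.10% lower. Aldh1a2 (0.872 and 1.74 FPKM) met the filter only through KD, and of the 6 with at least 1 FPKM in both groups 4 were higher. These were Tcf21 (11.9 and 25.5 FPKM), Upk3b (7.80 and 20.7 FPKM), Upk1b (9.17 and 22.1 FPKM) and Tbx18 (3.46 and 6.56 FPKM). Wt1 (13.8 and 19.2 FPKM) was not past 1.5-fold, and Tbx20, which cardiomyocytes make too, had 53.3 FPKM in WT and 44.8 in KD. Without Tbx20, left out after its values were seen, the epicardial sum was 47.0 FPKM in WT and 95.9 in KD. The 6 markers of cushion and other mesenchyme summed to 21.2 FPKM in WT and 29.9 in KD, with 3 of the 5 that reached 1 FPKM higher and 1 lower past 1.5-fold and none at 0. Pdgfra (0.969 and 2.78 FPKM) met the filter only through KD, and of the 4 with at least 1 FPKM in both groups 2 were higher, Sox9 and Twist1 (1.98 and 3.23 FPKM). The lower gene was Msx1, with 5.60 and 2.92 FPKM. For neither list was a share computed over all genes with at least 1 FPKM in both groups. The part of these cells in the values of Col1a1, Col6a1, Dcn and Loxl1, which were past 1.5-fold, was not tested, and neither was their part in those of Col1a2 and Col3a1, which were not past it.

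The remaining marker lists are given by their sums. The 6 endocardial markers summed to 135 FPKM in WT and 146 in KD, with 0 past 1.5-fold. The 5 parietal endoderm markers, of a tissue rich in type IV collagen, summed to 214 and 254 FPKM, mostly through Sparc, and the defining Lama1 had 0.21 and 0.25 FPKM. The 5 outflow and second heart field markers summed to 16.8 FPKM in WT and 12.5 in KD, with 1 of the 4 that reached 1 FPKM lower past 1.5-fold, beside 3.10% of all genes. The 4 smooth muscle markers summed to 3647 FPKM in WT and 2929 in KD, with 1 of the 3 that reached 1 FPKM lower, beside the same share, and embryonic cardiomyocytes express Acta2, Tagln and Cnn1 too. The 5 erythroid markers summed to 11438 FPKM in WT and 11518 in KD. The 5 yolk sac and liver markers summed to 0.613 and 1.38 FPKM, with Alb listed at 0 in both groups.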

How the data were processed

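Libraries were prepared from total RNA with Smart-Seq2, using 12 cycles of preamplification and 9 of enrichment PCR, and the submitters' processing notes list TopHat, Bowtie2, Cuffdiff and build mm10. The authors deposited 1 Cuffdiff table with an FPKM value per gene for WT and for KD (named KO there). The authors' own fold changes, test statistics, p and q values in it were not used. It holds 0 further columns of single samples, and no counts, so depth and the spread between embryos are unknown, and no test was made.

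From the 2 values, log2((KD + 0.1)/(WT + 0.1)) was computed for the 11606 genes with at least 1 FPKM in either group; this scale understates the difference of low genes. Collagens were sorted into fibrillar, basement membrane (types IV, XV and XVIII) and other. Every collagen row was described; of the pathway list, the highest gene of each main role and every gene past 1.5-fold. This gene family, the members of which a rule on names gives, and the lists were chosen with earlier results of these data known. Table starts were given with 1 added: of 20862 genes matched to GENCODE M21, 6297 starts were equal with it and 682 without. The calculation was tested on simulated data. Python 3.11.15, NumPy 2.4.6, pandas 2.3.3 and Matplotlib 3.10.9 were used. Alternatives were other pseudocounts, filters, fold limits and scalings.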

Additional observations from a re-analysis of the deposited data

How the results depend on the processing

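No paired analysis was possible because each group has a single value per gene, and no fit without each replicate could be made. Medians count as moved here by 0.1 or more on the log2 scale and numbers of genes by more than 1.5 times. With a pseudocount of 1, 0 collagen genes were lower past 1.5-fold (0 fibrillar), since Col2a1, at -0.58 after rounding, came just short of 1.5-fold, and 3 pathway genes were higher, since Creb3l1 (0.53) and Ctsk (0.49) also came short. With all genes above 0 FPKM, 6 of 37 collagen genes were higher and 4 lower, with a median of 0.01, beside 9.39% and 6.80% of 17383 genes, and ratios of genes under 1 FPKM rest on few reads. In the classes this gave a fibrillar median of -0.04, 1 basement membrane gene higher, and 4 other collagens higher and 3 lower. In the pathway it gave 9 higher and 3 lower. With at least 5 FPKM in either group, which leaves 9 collagen genes, 0 were higher (0 fibrillar, 0 other) with a median of 0.01, and 2 pathway genes were higher and 0 lower. At 2-fold 0 collagen genes (0 fibrillar) were lower and 3 pathway genes higher, beside 1.06% of all genes lower and 1.43% higher. At a limit of 0.32 on the log2 scale 6 collagen genes were higher and 2 lower, with 3 and 2 of them fibrillar, 3 other collagens higher, and 8 pathway genes higher. The fibrillar sum ratio was 1.254 without Col2a1 and 1.157 without Col2a1 and Col3a1, both chosen after seeing the data. Rescaling to the same sum, subtracting the median of all genes, a pseudocount of 0.01, type IV alone as basement membrane and leaving out shared loci moved 0 summaries. Under the 4 settings that can alter a single ratio, 252 of 255 single-gene values kept their side of 1.5-fold, 3 did not and 0 changed direction among genes past it.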
